A study of Homo sapiens with 16 samples.

Results

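The genes described here encode the core of the basement membrane: the type IV collagen chains COL4A1 and COL4A2, the multiplexin collagen COL18A1, the laminin chains LAMA2, LAMA4, LAMB1 and LAMC1, the nidogens NID1 and NID2, and HSPG2, which encodes the heparan sulfate proteoglycan perlecan. They were followed through 2 lists of genomic regions in LX-2 cells, a human line of hepatic stellate origin. The first list holds regions that lost H3K27ac, and the second regions that gained it, after inhibition of O-GlcNAc transferase (OGT). H3K27ac is the acetylated form of histone H3 lysine 27 found at active promoters and enhancers, and OGT is the enzyme that attaches O-GlcNAc to intracellular proteins. A region was given to a gene when any of its bases lay in the gene body or within 100 kb of the 5′ end of the gene, on either side. Under this rule 27 of the 7130 listed regions belonged to the 10 genes.

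All cells were LX-2, grown in DMEM with fetal bovine serum. The control cultures received the solvent DMSO, and the treated cultures (OGTi) received 50 µM OSMI-1, an OGT inhibitor, for 24 h. H3K27ac was measured by chromatin immunoprecipitation and sequencing in 4 biological replicates of each arm, which makes 8 of the 16 libraries of the series. The remaining 8 libraries are input DNA and column purified chromatin, and they were not used here. The model is limited to a single cell line, inhibitor, dose and time. The identity of the cells could not be checked against stellate cell markers, since the lists give positions of changed regions and no level of expression or acetylation.

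Basement membranes are thin sheets of matrix that underlie epithelia and endothelia and wrap muscle, nerve and fat cells. Laminin heterotrimers, each of an α, a β and a γ chain, polymerise at the cell surface through their receptors, and a covalently crosslinked network of type IV collagen forms alongside. Nidogens and perlecan bridge both networks. In the liver sinusoid the basement membrane is sparse, and hepatic stellate cells, which lie between sinusoidal endothelium and hepatocytes, are a known source of its components and deposit more of them as they become myofibroblasts.

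The printed stretches are those with the most matches to consensus motifs of transcription factors within 280 bases, the first by position where several tied, in regions at the start or in the body of the genes shown. They are shown because the lists carry no other information on what these regions contain. A repeat at NID1 and a TEAD pair in COL4A2 were added after their values were seen. All are from hg38, plus strand, 5′ to 3′, with motif matches in capitals. Matches to CATTCC or its reverse complement GGAATG are the core of the motif of TEAD factors, the DNA-binding partners of YAP and TAZ. Matches to TGANTCA are AP-1 motifs (FOS and JUN dimers), and matches to TGTGGT or its reverse complement ACCACA are RUNX motifs. The stretch between the RefSeq start sites of COL4A1 and COL4A2 (GRCh38.p14) is shown because these genes share it as their promoter and no listed region touched it.
COL4A1/COL4A2 between the start sites, chr13:110307157-110307284: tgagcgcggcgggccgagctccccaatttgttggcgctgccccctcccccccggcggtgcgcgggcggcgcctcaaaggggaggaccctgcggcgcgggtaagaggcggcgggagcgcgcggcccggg
COL4A1 intron 1, lost, chr13:110247687-110247940: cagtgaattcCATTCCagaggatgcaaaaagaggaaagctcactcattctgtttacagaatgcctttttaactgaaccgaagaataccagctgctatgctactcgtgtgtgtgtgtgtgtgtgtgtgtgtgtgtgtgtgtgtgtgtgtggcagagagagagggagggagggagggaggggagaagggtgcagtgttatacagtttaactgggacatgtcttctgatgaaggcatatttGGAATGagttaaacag
COL4A2 intron 3, lost, chr13:110347880-110347984: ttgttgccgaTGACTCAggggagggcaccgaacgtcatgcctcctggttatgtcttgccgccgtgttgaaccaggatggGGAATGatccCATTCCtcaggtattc
COL4A2 intron 18 TEAD pair, lost, chr13:110448453-110448495: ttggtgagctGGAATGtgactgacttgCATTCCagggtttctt
COL18A1 intron 2, lost, chr21:45438865-45438920: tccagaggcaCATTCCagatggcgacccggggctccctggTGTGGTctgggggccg
LAMB1 gene body, lost, chr7:107952350-107952514: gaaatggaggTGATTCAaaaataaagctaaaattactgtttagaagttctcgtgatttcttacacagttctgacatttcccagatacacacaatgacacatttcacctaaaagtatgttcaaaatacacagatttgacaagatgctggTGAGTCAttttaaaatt
HSPG2 intron 1, lost, chr1:21935434-21935615: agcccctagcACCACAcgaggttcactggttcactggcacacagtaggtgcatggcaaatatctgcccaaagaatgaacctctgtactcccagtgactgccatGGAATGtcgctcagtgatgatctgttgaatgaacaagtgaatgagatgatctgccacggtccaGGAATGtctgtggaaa
LAMC1 upstream of its start, gained, chr1:183022463-183022653: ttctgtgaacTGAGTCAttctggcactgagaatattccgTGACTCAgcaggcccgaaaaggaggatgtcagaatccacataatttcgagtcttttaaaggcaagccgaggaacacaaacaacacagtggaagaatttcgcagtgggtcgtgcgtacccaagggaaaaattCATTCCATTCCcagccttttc
NID1 upstream, gained, chr1:236097071-236097368: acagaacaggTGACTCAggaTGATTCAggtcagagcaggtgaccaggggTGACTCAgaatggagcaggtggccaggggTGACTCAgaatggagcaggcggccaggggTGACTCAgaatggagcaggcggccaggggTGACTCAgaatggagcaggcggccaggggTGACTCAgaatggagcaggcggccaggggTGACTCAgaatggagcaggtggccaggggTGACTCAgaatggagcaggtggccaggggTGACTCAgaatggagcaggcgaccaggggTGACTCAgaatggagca

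Of the 10 genes, 5 had lost regions only (COL4A1, COL4A2, COL18A1, LAMB1 and HSPG2), 4 had gained regions only (LAMA2, LAMA4, LAMC1 and NID1), none had both, and NID2 had neither. The collagens and perlecan were thus in the lost list, and the laminin chains were divided between both lists. Under the same rule, 14.4% of the 20046 protein-coding genes had lost regions only, 23.3% gained regions only, 7.20% both and 55.1% neither. A lost region of any number was found at 21.6% of protein-coding genes and at 5 of the 10 genes, and a gained region at 30.5% and at 4 of the 10 genes. COL4A1 and COL4A2 are neighbours and share their regions, so that the 5 genes with lost regions stand for 4 separate loci.

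**Figure D1:**
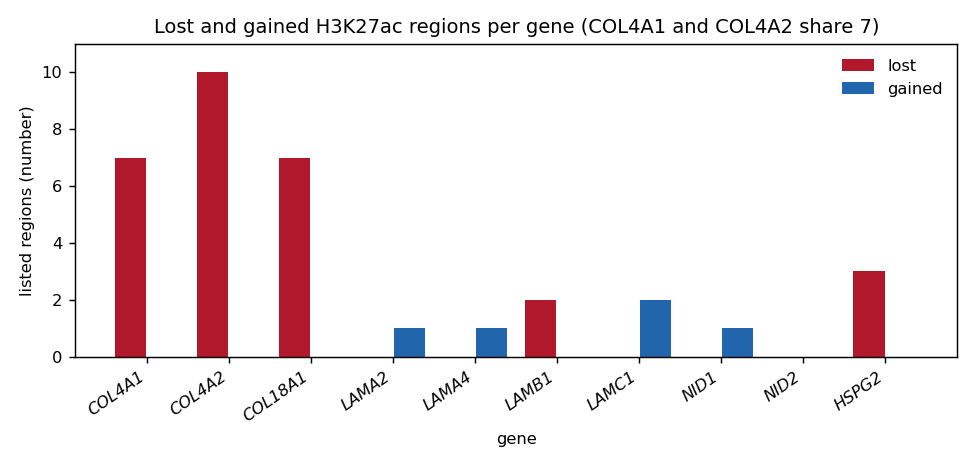
Number of listed H3K27ac regions (y axis) at each gene (x axis), with lost regions in red and gained regions in blue. COL4A1, COL4A2 and COL18A1 hold 7, 10 and 7 lost regions, no other gene holds more than 3 regions of either kind, and no gene has bars of both colours.

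Counted once each, the regions were 22 lost and 5 gained, or 81.48% lost. Over both lists 49.2% of regions were lost, and over the regions at protein-coding genes 46.47%. Without COL4A1 and COL4A2, a choice made after seeing the data, 12 lost and 5 gained regions remained, or 70.59% lost. Of these 12 lost regions, 7 were at COL18A1, 3 at HSPG2 and 2 at LAMB1. Most of the 22 lost regions thus lay at the COL4A1/COL4A2 pair and COL18A1, and the lost share was not spread evenly over the genes. Per length searched, the 10 genes carried 8.493 lost regions per Mb against 1.43 at all protein-coding genes. For gained regions the corresponding values were 1.93 and 1.647 per Mb. No test was made on any of these counts, since the lists hold neither signal nor replicate values.

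The lost regions covered 42.07 kb and the gained regions 11.38 kb. Lost regions at the 10 genes had a median width of 2000 bp, between 257 and 2913 bp, against 1905 bp in the whole list. Gained regions had a median of 2210 bp, between 798 and 3398 bp, against 1697 bp. In the authors' procedure wide peaks are divided into bins, typically of 2000 bp, so a wide acetylated domain can appear as several abutting regions. When abutting regions were joined, 18 lost and 4 gained blocks remained.

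Most of these regions lay away from promoters. Of the 22 lost regions, 16 overlapped the body of a member gene and 2, both at HSPG2, lay within 2500 bp of a 5′ end. The study used a window of this size to link regions with genes, and also predicted contacts between distal regions and promoters, which were not used here. Of the 5 gained regions, 3 overlapped a gene body and 2, both at LAMC1, lay within that window. A lost region lay so close to the 5′ end in 2.02% of protein-coding genes, and a gained region in 6.39%.

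**Figure D2:**
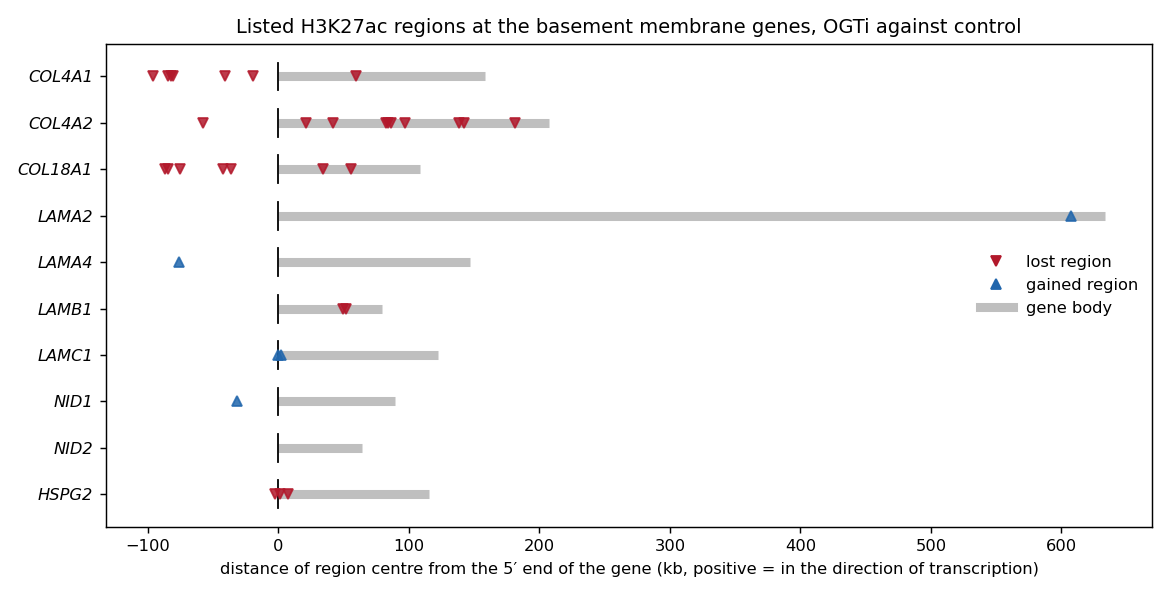
Position of each listed region, as the distance of its centre from the 5′ end of the gene (x axis, kb, positive in the direction of transcription), for the 10 genes (y axis), with gene bodies as grey bars, lost regions as red triangles pointing down and gained regions as blue triangles pointing up. The collagen regions are spread over both sides of the 5′ end, those of HSPG2 and LAMC1 sit at it, and the LAMA2 region lies 606 kb inside the gene.

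COL4A1 and COL4A2 encode the α1 and α2 chains that assemble into the most widespread type IV collagen trimer. They are transcribed in opposite directions from a shared promoter on chromosome 13. COL4A2 had 10 lost regions, and 7 of them also lay within reach of COL4A1. The regions formed 8 blocks over 240.6 kb (chr13:110246785-110487365) and covered 18656 bp. At least 7 lost regions were found at 0.364% of protein-coding genes (73 genes), and at least 10 at 0.140% (28 genes). The nearest gained region was 466.6 kb from the outermost of the 10, and the next lost region outside them 226.4 kb away.

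The shared promoter itself was in neither list. The RefSeq starts of the genes lie at 110307157 (COL4A1, minus strand) and 110307284 (COL4A2, plus strand), and the 128 bases from one start to the other have a GC content of 79.69% and an observed to expected CpG ratio of 0.994. No match to any of the 6 motifs searched was present in these 128 bases. The nearest listed region was 19.31 kb from the 5′ end of COL4A1 and 20.65 kb from that of the COL4A2 gene record in GENCODE, which begins at 110305812, inside COL4A1, and not at the RefSeq start.

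On the COL4A1 side, a lost region of 2638 bp (chr13:110246785-110249422) lay in intron 1 of COL4A1, 57.73 kb from its 5′ end. It held 5 TEAD core matches, the highest number among the 27 regions, and no AP-1 match. All other regions of the pair lay in COL4A2, whose representative GENCODE transcript has 48 exons.

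Intron 3 of COL4A2 held a region of 257 bp (chr13:110326466-110326722), the narrowest of all 27, with no match to any of the motifs. The same intron held a region of 2786 bp (chr13:110346443-110349228), in which 3 TEAD core matches and 2 AP-1 matches were found. In it, GGAATG was followed by CATTCC, a TEAD core on each strand, with starts 10 bases apart, and the closest AP-1 match started 69 bases from a TEAD core match. Intron 4 held 3 abutting regions (chr13:110387328-110392682) with 3 TEAD core and 2 AP-1 matches in total, and a separate region at chr13:110402205-110403970 with an AP-1 match and no TEAD core.

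Farther into the gene, a region in intron 16 (chr13:110443012-110444966) was followed after a gap of exactly 2000 bp by a region over intron 18 and 19 bp of exon 19 (chr13:110446967-110449697). The second of these held 3 TEAD core matches, of which a pair on opposite strands started 17 bases apart. In the first, a TEAD core and an AP-1 match started 40 bases apart. The last region lay in intron 34 (chr13:110486198-110487365), 180.4 kb from the 5′ end. These 3 regions were nearer to the 5′ end of RAB20, a gene of a RAB family GTPase, than to those of COL4A1 or COL4A2, at 116.8, 112 and 74.36 kb.

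**Figure D3:**
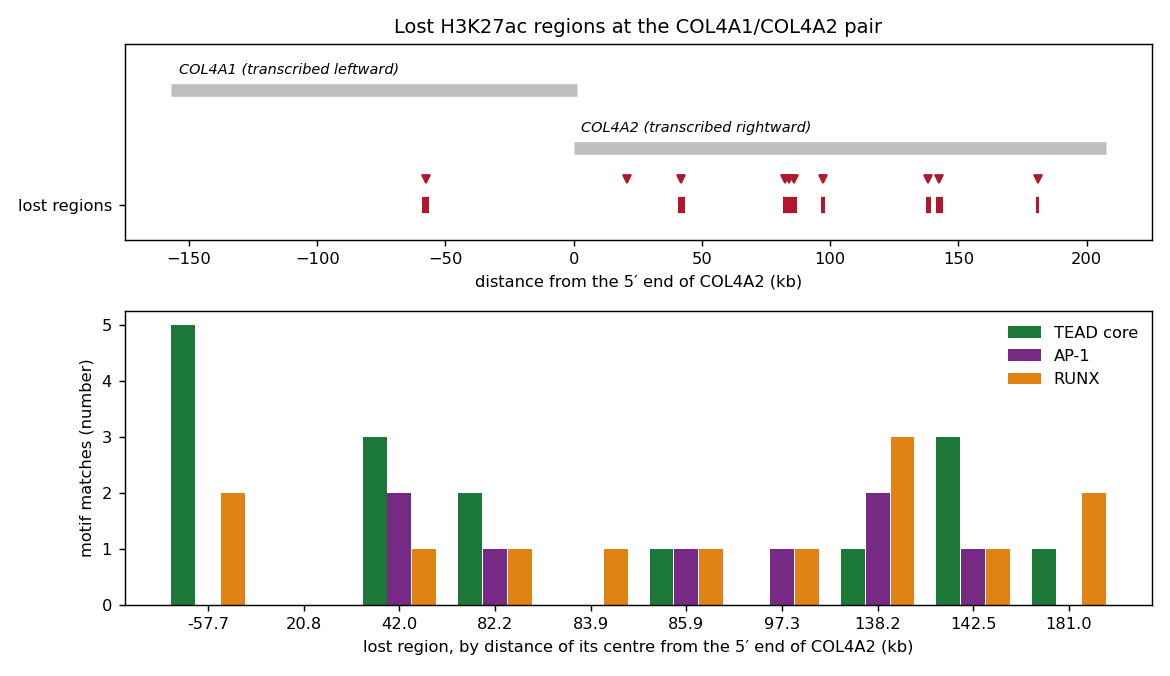
Upper panel, gene bodies of COL4A1 and COL4A2 (grey) and the 10 lost regions (red, a triangle above each) by distance from the 5′ end of COL4A2 (x axis, kb). Lower panel, number of TEAD core, AP-1 and RUNX matches (y axis) in each region, in order of position. No region lies over the shared promoter, the intron 1 region of COL4A1 has the most TEAD core matches (5), and the 257-bp region has none of the motifs.

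COL18A1 encodes a basement membrane collagen whose C-terminal fragment is endostatin. Its 7 lost regions formed 6 blocks over 144.4 kb of chromosome 21 (chr21:45317184-45461576) and covered 14191 bp. The nearest gained region was 237.5 kb away. Upstream of the gene lay 5 of the regions, with their nearer edges 85.83, 83.56, 73.95, 41.3 and 36.25 kb from the 5′ end. The 3 most distant were nearer to the 5′ end of POFUT2, which encodes a protein O-fucosyltransferase, at 29.29, 31.44 and 40.68 kb, so their assignment to COL18A1 rests on the distance rule alone. The second of these also overlapped a non-coding gene. The other 2 (chr21:45438769-45439930 and chr21:45459563-45461576) lay in intron 2 of the 42-exon transcript, and the second was 4032 bp from the start of another COL18A1 transcript.

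Base composition differed between the collagen loci. GC content was between 55.66 and 63.52% in the 7 COL18A1 regions, with a median of 59.38%, and between 43.65 and 57.2% in the 10 regions of the COL4A1/COL4A2 pair, with a median of 48.01%. The ranges overlapped through the 257-bp region alone, which had the 57.2%. TEAD core matches numbered 5 in the COL18A1 regions (0.352 per kb) and 16 in those of the pair (0.858 per kb), against 0.862 per kb over all lost regions. The 3 CArG boxes, the motif of serum response factor, found in lost regions at the 10 genes were all at COL18A1.

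The laminin chains were in both lists. LAMB1 encodes the β1 chain and had 2 abutting lost regions, chr7:107950747-107952746 and chr7:107952747-107954555, which together form a block of 3809 bp whose nearer edge lay 48.66 kb inside the gene. The block covers exons 22 to 24 of 34. It held 4 TEAD core and 3 AP-1 matches, and the nearest gained region was 279.9 kb away. No other lost region lay within 2173 kb of the block.

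LAMC1 encodes the γ1 chain, which most laminin trimers contain, and was the only member with a gained region over its 5′ end. Its 2 abutting gained regions ran from -1549 bp to 2662 bp relative to the 5′ end (chr1:183021871-183023872 and chr1:183023873-183026082), over exon 1 and the start of intron 1. The first had a GC content of 63.24% and the second of 43.12%. Upstream of the 5′ end, the first region held 2 AP-1 matches and the overlapping TEAD cores CATTCCATTCC. The nearest lost region was 1134 kb away.

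LAMA2 encodes the α2 chain of the laminins of muscle and Schwann cell basement membranes. Its gained region of 2973 bp lay 606 kb from the 5′ end, over exon 57 of 65 and the flanking introns. The 5′ end of ARHGAP18 was nearer, at 218.1 kb. The start of another LAMA2 transcript and a non-coding gene overlap it. LAMA4 encodes the α4 chain, found in the basement membranes of vessels and mesenchymal cells. Its gained region of 3398 bp (chr6:112329753-112333150), the widest of the 27, lay 74.81 kb upstream of the 5′ end and 14.18 kb from that of RFPL4B, inside a protein-coding readthrough gene without a symbol. It held 4 AP-1 and 3 TEAD core matches, with a GC content of 38.29%.

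The nidogens had a gained region between them. At NID1 it was 798 bp wide (chr1:236096720-236097517) and lay 31.61 kb upstream of the 5′ end, with no protein-coding 5′ end nearer. This region held 12 AP-1 matches and no TEAD core or RUNX match. The first 2 AP-1 matches started 10 bases apart and all following ones 29 bases apart, in a tandem repeat whose units differ by few bases in the printed stretch, which holds 11 of the 12. As many AP-1 matches were present in 2 of the 7130 listed regions, this one included, and both were gained, while the median over all gained regions was 1. The reads were single-end and 50 bases long, and how they map within this repeat was not tested. NID2 had no region, and the nearest listed one, a lost region, was 386.3 kb from its 5′ end.

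**Figure D4:**
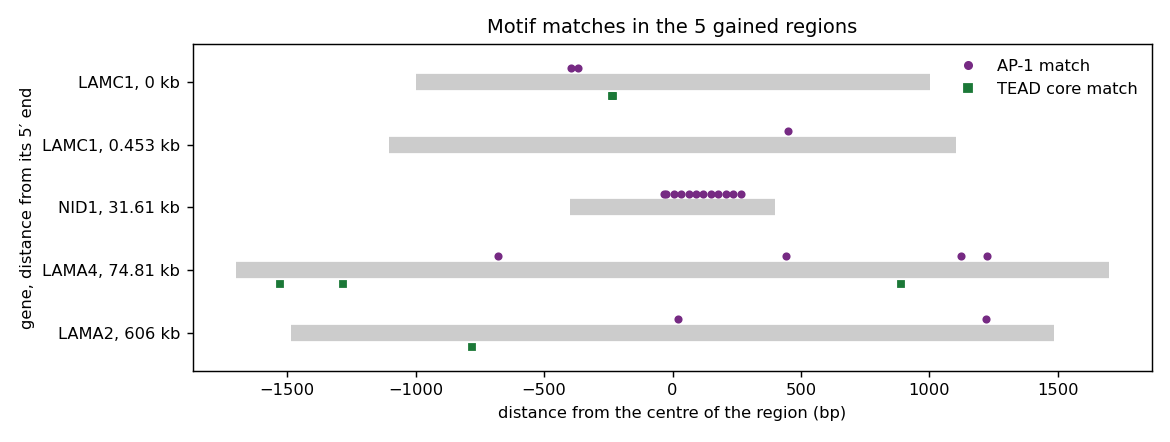
The 5 gained regions (grey bars, y axis with the distance of the nearer edge from the 5′ end) drawn by distance from their centre (x axis, bp), with AP-1 matches as purple circles above and TEAD core matches as green squares below each bar. The row of 12 AP-1 matches is in the NID1 region, and the overlapping TEAD cores of LAMC1 appear as a merged square.

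HSPG2 was the only member with a lost region over its 5′ end. Its 3 lost regions lay within 10.73 kb of chromosome 1 (chr1:21929725-21940458). The widest (chr1:21934881-21937793), of 2913 bp, ran from -483 bp to 2429 bp relative to the 5′ end, over exon 1 and part of intron 1 of the 97-exon transcript. It held 4 TEAD core, 2 AP-1 and 4 RUNX matches, and its GC content of 64.26% was the highest of the 27 regions. A second region, of 1156 bp, lay in intron 1 after a gap of exactly 4000 bp, and the third, of 1341 bp, lay 1808 bp upstream of the 5′ end. The nearest gained region was 666.9 kb away.

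HSPG2 and LAMC1 had listed changes of opposite direction at their promoters. The 300-base RefSeq promoters (250 bases before to 50 after each start, GRCh38.p14) of all 10 genes were found, with 2 entries for COL18A1. Only that of HSPG2 overlapped a lost region and only that of LAMC1 a gained one, and of all 35116 promoters 1.34% overlapped a lost and 4.87% a gained region. A TEAD core was present in the LAMA2 promoter and a RUNX motif in that of NID2, and the remaining 9 entries held no match to the 6 motifs. Over all promoters, 14.0% held a TEAD core, 4.15% the longer TEAD motif described below, 7.71% an AP-1, 13.1% a RUNX motif, 0.866% the ATF4-C/EBP motif TGATGCAA and 1.29% a CArG box.

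Over the whole width of the lost regions, the share with each motif was within a few percentage points of that in the whole lost list. The gained regions were too few for a share. Per kb, the lost regions at the genes held fewer TEAD core (0.713 against 0.862), AP-1 (0.428 against 0.512) and RUNX matches (0.618 against 0.744) than all lost regions. In their central 1000 bp, the TEAD core share was 45.5% against 57.3%. The TEAD core was present in 15 of the 22 lost regions (68.2%) against 73.5% of all lost regions, and in 3 of the 5 gained regions against 58.8% of all gained ones. The longer TEAD motif, the core preceded by A or G and followed by A or T on the same strand, which is part of the core count, was present in 10 of 22 lost regions (45.5%) against 42.9%, and in 2 of 5 gained regions against 27.5%. AP-1 was present in 12 of 22 lost regions (54.5%) against 56.5%, and in 5 of 5 gained regions against 53.6%. RUNX was present in 16 of 22 lost regions (72.7%) against 68.1%, and in 3 of 5 gained regions against 60.0%. No region at the 10 genes held the motif TGATGCAA, which was present in 4.36% of all lost and 10.1% of all gained regions. The CArG box was present in 3 of 22 lost regions (13.6%) against 14.7%, and in the LAMA2 region among the gained ones against 7.76%.

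**Figure D5:**
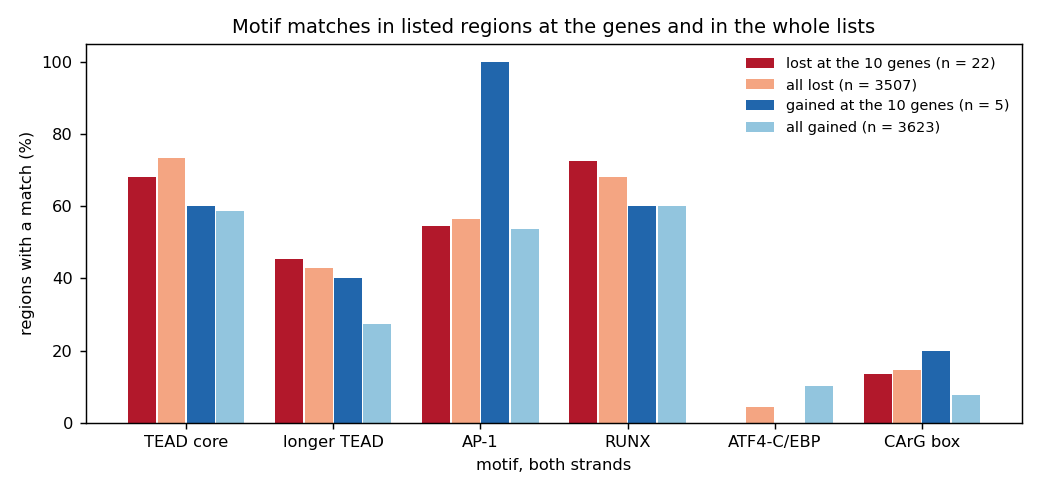
Percent of regions with at least 1 match on either strand (y axis) for each motif (x axis), in lost and gained regions at the 10 genes (dark red, n = 22, and dark blue, n = 5) and in the whole lists (light red, n = 3507, and light blue, n = 3623). The dark and light red bars are close for every motif, and the dark blue bars rest on 5 regions.

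Few lost regions held closely spaced matches, and those that did were at the collagen IV pair. For a TEAD core near AP-1, the share in the lost regions was below that of the whole list. For TEAD pairs it rests on 2 regions. A TEAD core and an AP-1 match started within 100 bp of each other in 3 of the 22 lost regions (13.6%), all 3 at COL4A1/COL4A2, against 15.5% of all lost regions. In 2 of the 22 (9.09%), the intron 3 and the intron 18 regions of COL4A2, TEAD cores started within 20 bp of each other, against 4.05% of all lost regions. Among the 5 gained regions this was the case at LAMC1, against 1.32% of all gained regions. The distances were chosen with the data in view. Lost regions at the 10 genes had a median GC content of 51.5% and a median CpG ratio of 0.304, against 46.78% and 0.202 over all lost regions. Gained regions had a median GC content of 43.12% against 46.05%.

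Other genes of the basement membrane were examined with the same rule. Of 44 such genes, 10 had lost regions only, 15 gained regions only, 6 both and 13 neither, with 30 distinct lost and 27 distinct gained regions. Over all protein-coding genes the shares were 14.4% lost only, 23.3% gained only, 7.20% both and 55.1% neither. The same shares are the background for the smaller groups that follow, and no difference from them was tested. Of 7 further basement membrane collagens, 1 had lost regions only, 2 gained regions only, 1 both and 3 neither. COL15A1, the closest relative of COL18A1, had 3 lost regions in its body and a gained region elsewhere within reach. COL7A1, the collagen of anchoring fibrils, had 2 lost regions at its start. COL4A6 had a gained region in its body, which also lay within reach of COL4A5. COL4A3 and COL4A4 had no listed region within reach, so none of these type IV chains had a lost region. Of 8 further laminin chains, 5 had gained regions only, 1 lost only, 1 both and 1 neither. In these, LAMB2 had a lost region at its start and a gained region elsewhere within reach. LAMA1 had a gained region in its body.

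Of 18 linkers and associated proteins, 4 had lost regions only, 7 gained regions only and 7 neither. FBLN2, encoding fibulin-2, had 2 lost regions in its body or at its start, SMOC2 2 and FRAS1 1 in the gene body. SPARC, which encodes a collagen-binding matricellular protein, had 2 gained regions, and SPARCL1, PXDN (peroxidasin, which crosslinks type IV collagen) and EGFLAM (pikachurin) had 1 each. Of 11 receptors, 4 had lost regions only, 1 gained only, 4 both and 2 neither. Lost regions lay in the body or at the start of ITGA6, ITGB1, ITGB4, DAG1 (dystroglycan), DDR1 and DDR2, with 1 each except for 2 at DDR2. Gained regions lay there for ITGA2 (3 regions), ITGA3 (2) and ITGB1 (1), so that ITGB1, the β1 integrin chain, had both kinds. The lists give no measure of whether these changes differ in size from those at the 10 genes.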

How the data were processed

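The authors aligned reads to hg38 with Chromap, removed duplicates and blacklisted regions, called peaks per library against input with MACS2 (version 2.1.1.20160309 in the submitters' processing notes), divided peaks into bins and tested all 8 H3K27ac libraries with MAnorm2. The 2 deposited lists hold chromosome, start and end only. Their names state an adjusted p threshold of 0.15, whereas the methods text names 0.05, and the lists were used as deposited. Their sizes, 3507 lost and 3623 gained regions, equal the numbers of lost and gained regions that the paper reports. Depth and effect size behind a region are unknown, and regions without a listed change were not used here.

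Starts were converted to count from 1. Genes came from GENCODE 44 (the study used release 34), and the 5′ end was that of the gene record. Exons and introns are those of the Ensembl canonical transcript. Sequences were read from hg38 with pysam 0.24.0, and promoters came from RefSeq. Motifs were matched exactly on both strands. Assignment and motif search were tested on simulated data. Distances are from the nearer edge of a region. The members and lists were chosen with earlier results of these data known. All 10 members were described. Further basement membrane genes were named where a region overlapped the body or lay within 2500 bp of the 5′ end. Type IV collagen chains were named in any case. Other genes were named where a member's region lay in them or nearer to their 5′ end, those without a symbol by their kind only. The stretch at LAMA2 is not reported here. No test was made.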

Additional observations from a re-analysis of the deposited data

How the results depend on the processing

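Within 50 kb of the 5′ end or in the body, 19 lost and 4 gained regions were found, LAMA4 lost its region, and 2 genes had neither kind. COL4A1 then had 3 lost regions instead of 7, COL18A1 4 instead of 7 and COL4A2 9 instead of 10. With the window of 2500 bp around the 5′ end alone, 2 lost and 2 gained regions were found, 50% lost, with 1 gene lost only, 1 gained only and 8 neither. With the gene body alone, 16 lost and 3 gained regions were found, and 5 genes had lost only, 2 gained only and 3 neither. Of these lost regions, COL4A2 had 9, COL18A1 2 and COL4A1 1. Leaving out COL4A1 and COL4A2, added after seeing the data, left 12 lost regions, 7 of them at COL18A1. In the central 1000 bp of the regions, the TEAD core was present in 45.5% of lost regions at the genes (57.3% of all lost) and 20% of gained ones (42.9% of all gained). Using all transcript starts, the centre of each region or regions joined within 1000 bp moved no count by more than 1.5 times, and in no alternative did a gene have both kinds. The background of 21.6% and 30.5% was 18.0% and 23.5% over all annotated genes. A stricter threshold and leaving out replicates were not run. No paired analysis was possible because each list is a set of positions, without a value for any replicate.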
